A study of Homo sapiens with 4 samples.

Results

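The mitochondrial ribosomal protein genes are the 77 genes whose name on the array begins with MRPL or MRPS followed by a number and, at most, the letter A, B or C. They are 77 of 43305 gene names with a value on every array, and by name 48 encode large subunit proteins and 29 encode small subunit proteins. Their products form the mitoribosome, which sits in the mitochondrial matrix and translates the few mRNAs that mitochondrial DNA encodes, all of them core parts of the respiratory chain and the ATP synthase. The ribosomal RNAs of this machine are made in the mitochondrion, whereas every one of its proteins is encoded in the nucleus, made in the cytosol and imported. Some of the proteins descend from bacterial ribosomal proteins and others are particular to mitochondria.

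RNA of 4 cultures was measured with 1 one-colour Agilent array each. HN4 and HN30 are established human head and neck squamous cell carcinoma (HNSCC) lines, and HN4/DDP and HN30/DDP (HN4_CR and HN30_CR in the sample labels) are their cisplatin-resistant derivatives. Resistance was built up by raising the dose of cisplatin step by step. Cisplatin is a platinum compound that crosslinks DNA. By the labels the resistant cells were in 20 μM cisplatin for 48 h, while no drug is named for the parental cells. Each resistant line was set against its own parent, so that long selection and drug present in the medium cannot be told apart.

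Levels are given as log2 of the processed signal of a spot minus the 75th percentile of the array, so that 0 is that percentile and a difference of 1 is 2-fold. Where a gene had several probes, the brightest on average was used. Levels of different genes come from different probes and are not compared. With 1 array per condition there is no replicate spread and no test of a single line. The error the scanner software gives for a difference between arrays had a median of 0.204 (SD) over the members, and it leaves out differences between cultures. A difference above 1 or below -1 is called 2-fold higher or lower where the brighter array of the pair was well above background by the scanner's own call.

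All 77 members were well above background on all 4 arrays, and no spot was saturated. The array named 76 of them as RefSeq does, and RefSeq lists MRPS36 as KGD4, a subunit of the alpha-ketoglutarate dehydrogenase complex. It is kept here by its array name. From structures of the mitoribosome, the products of MRPS18A and MRPS30 are known to sit in the large subunit in spite of their names. Of all spots, 57.2% were well above background on the HN4 array and 59.0% on that of HN4/DDP, against 55.3% for HN30 and 63.6% for HN30/DDP. Of 8 squamous marker genes, such as TP63 and KRT5, all 8 were well above background on HN4, HN4/DDP and HN30, and 7 on HN30/DDP, where the keratin KRT6A was not (levels of -2.93, 0.40, 2.60 and -5.85 on HN4, HN4/DDP, HN30 and HN30/DDP). These markers differed between the arrays of a line, in both directions. KRT5 differed by -4.04 in the HN4 line and by -1.93 in the HN30 line, and KRT14 by 2.34 and 0.22, KRT17 by 3.30 and 0.19, DSG3 by 1.85 and 0.54, DSC3 by -2.95 and 1.12, SFN by 0.16 and -0.96 and TP63 by -0.81 and -0.06 in the same order. Of 5 fibroblast markers, COL1A2, COL3A1 and DCN were not well above background on any array, while PDGFRB and COL1A1 were on all 4. COL1A1 was higher by 1.73 in the HN4 line and 2.43 in the HN30 line. Of the immune markers reported here, PTPRC was well above background on all 4 arrays (0.16 in the HN30 line) and CD3E on HN30/DDP alone. Of 3 endothelial markers, CDH5 was so on all 4 (-0.61 and -0.59), PECAM1 on HN4 and HN30/DDP, and VWF on all but HN4 (1.49 in the HN30 line). The part of any marker in the results on the members was not tested.

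The mitoribosomal genes were lower in HN30/DDP than in HN30 and stayed near their parental level in HN4/DDP. In HN30/DDP, 74 of 77 members lay below HN30, with a median difference of -1.08 (quartiles -1.41 and -0.67), which is 2.12-fold. By the 2-fold call 43 of 77 members were lower and 0 were higher. Among all 28330 genes well above background on HN30 or HN30/DDP, 13.3% were called lower and 19.7% higher, and 54% of the 22149 genes well above background on all 4 arrays lay below 0, with a median of -0.07. In HN4/DDP the median of the members was -0.02 (quartiles -0.27 and 0.16), 41 of 77 lay below HN4 (57.5% of the 22149 genes), 2 were called lower and 1 higher. Among 26853 genes, 8.57% were called lower and 9.39% higher in that line. Within 0.2 of the parental level lay 37 members in HN4/DDP (31.2% of the 22149 genes), and 64 lay within 0.5 (64.4%). Past 0.5 on the log2 scale, 70 members were lower in HN30/DDP (26.5% of all genes) and 2 were higher (32%), while 9 were lower in HN4/DDP (22.3%) and 4 were higher (19.1%). Past 2, which is 4-fold, the 1 lower member was MRPL1 in HN30/DDP (2.76% of all genes), with 0 higher there (8.35%) and 0 lower or higher in HN4/DDP (2.19% and 3.62%).

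**Figure D1:**
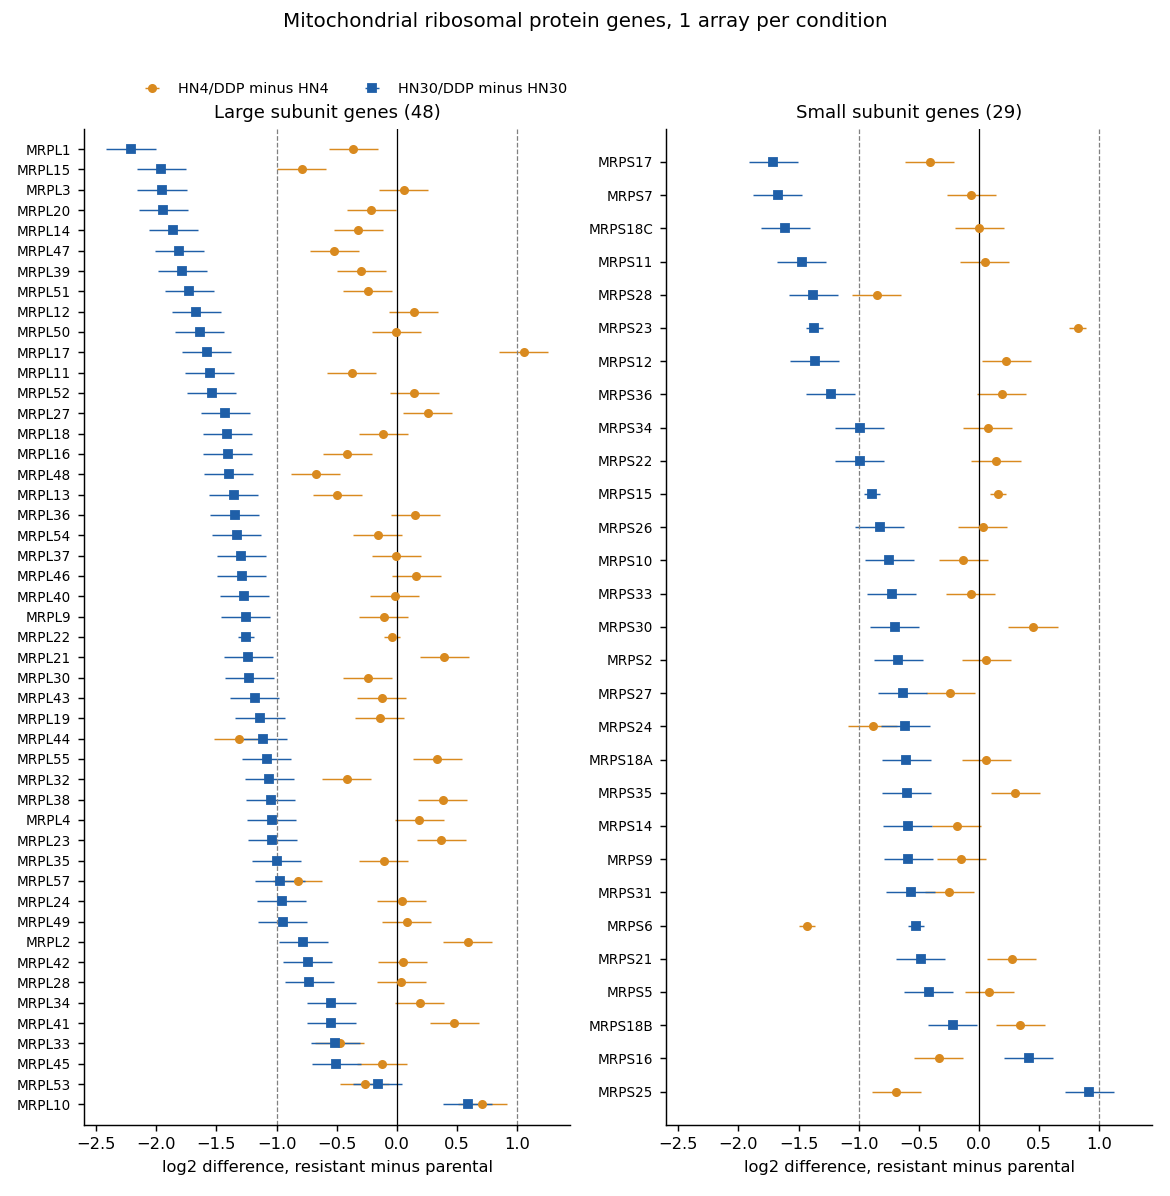
Difference of each of the 77 members between a resistant line and its parent (log2, horizontal axis), for HN4/DDP (orange circles) and HN30/DDP (blue squares), with large subunit genes on the left and small subunit genes on the right; whiskers are ± 1 SD from the scanner's error and dashed lines mark 2-fold. In HN30/DDP 43 members lie left of the 2-fold line, against 2 in HN4/DDP.

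The size of the difference in HN30/DDP depended on how the arrays were scaled. With quantile normalization 65 of 77 members lay below HN30, the median was -0.67 and 16 members were called lower, against 13.0% of the 22149 genes. From the deposited log2 table, 65 lay below HN30, the median was -0.72 and 18 were called lower, against 13.5%. MRPL33, MRPL34, MRPL41, MRPL45, MRPL53, MRPS18B, MRPS21, MRPS5 and MRPS6, below HN30 with the 75th percentile, lay above it under both of these scalings, by 0.01 to 0.45. With the 75th percentile, 14.6% of these genes were called lower. Centred on the median of each array, 64 members were called lower, against 26.8%. Bright genes as a whole were lower on HN30/DDP. The genes well above background on all 4 arrays were split into 10 bins by mean signal. In the brightest 2 bins, where 66 of the 77 members lie, the median of all genes was -0.49 and -0.46, and 26.5% and 26.2% of them were 2-fold lower. The members in these bins had medians of -1.18 and -1.06, and 15 of 27 and 21 of 39 were 2-fold lower. After the trend of the difference with brightness was taken off, 70 members lay below 0 with a median of -0.73, and 17 were called lower, against 11.1% of the genes. In HN4/DDP the medians of all 10 bins lay between -0.18 and -0.03.

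**Figure D2:**
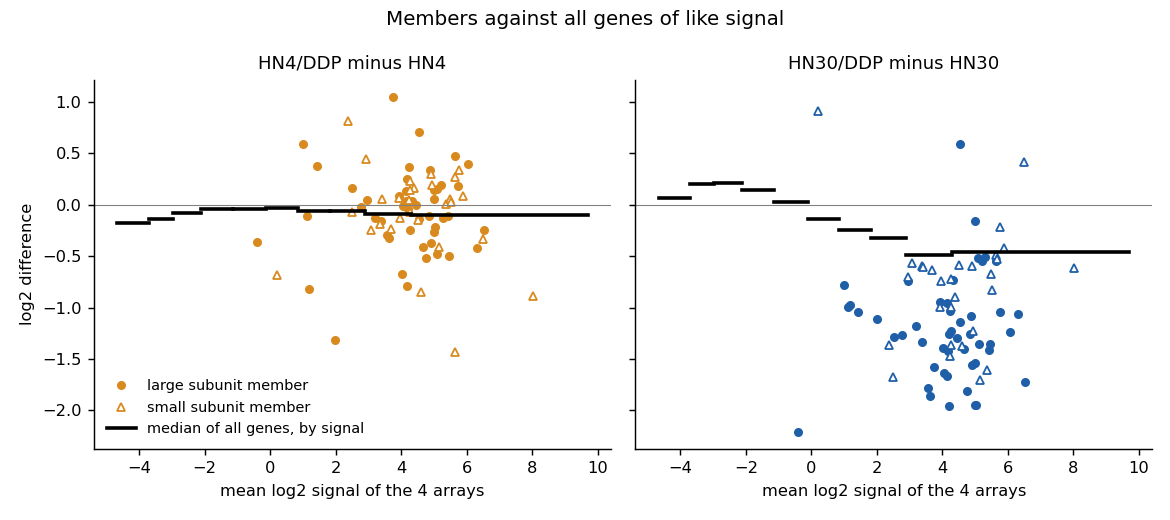
Difference between resistant and parental array (log2, vertical axis) against the mean log2 signal of the 4 arrays, for the members of the large (filled) and small (open) subunit; black bars are the medians of all genes well above background on all 4 arrays, in 10 bins of signal. In HN30/DDP (right) the bars fall to -0.49 and -0.46 in the brightest bins, and most members lie below them; in HN4/DDP (left) bars and members lie around 0.

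The array on which the members stood out was not HN30/DDP alone. HN30 had the highest level of the 4 arrays in 63 of 77 members, HN30/DDP the lowest in 66, and both held in 57, against 19.8% of all genes well above background on all 4 arrays. Of the 75 nuclear genes of oxidative phosphorylation, HN30 was highest in 58, HN30/DDP lowest in 69, and both held in 52. Between the parental lines, HN30 lay above HN4 in 70 members (54.2% of all genes) with a median difference of 0.38. This was shared by 72 of 81 cytosolic ribosome genes (median 0.12) and 69 of the 75 nuclear genes of oxidative phosphorylation (median 0.23). Between the resistant lines, HN30/DDP lay below HN4/DDP in 67 members (49% of all genes) with a median of -0.69. For most members the HN30 pair held the extremes of the 4 arrays, and the HN4 pair lay between them.

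**Figure D3:**
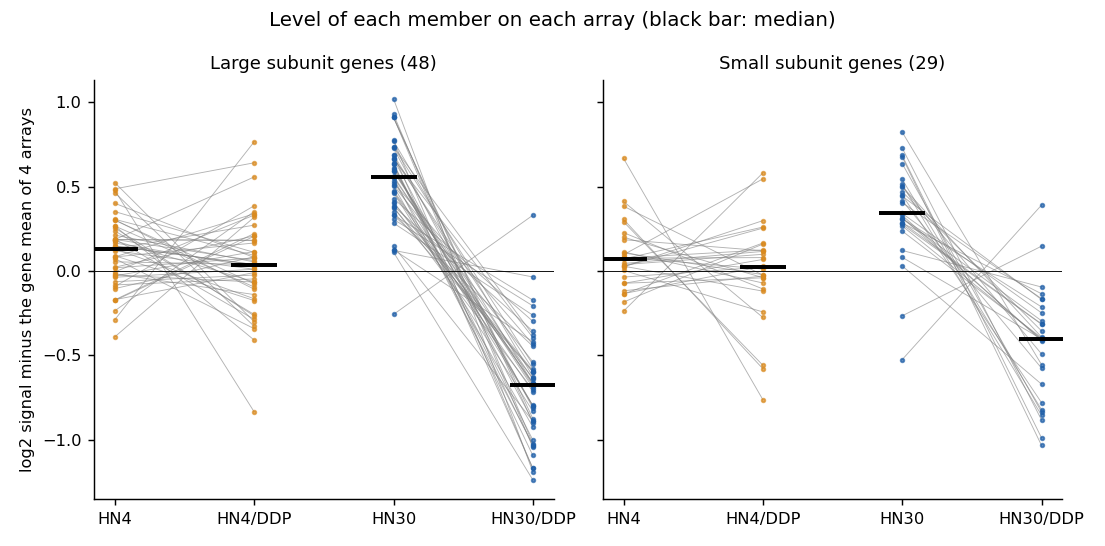
Level of each member on each array (log2 signal minus the mean of that gene over the 4 arrays, vertical axis), with lines joining a parental array to its resistant line and black bars at the medians. Most genes are highest in HN30 and lowest in HN30/DDP, and the bars of HN4 and HN4/DDP lie close to 0.

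Large subunit genes lay further below HN30 than small subunit genes in HN30/DDP. The 48 large subunit members had a median of -1.25, with 47 below HN30 and 35 called lower. The 29 small subunit members had a median of -0.70, with 27 below HN30 and 8 called lower. As shares, 72.9% of the large and 27.6% of the small subunit members were called lower, where 26.5% and 26.2% of all genes were 2-fold lower in the brightest bins, so the small subunit share lay near that of genes of like signal. The counts of large and small subunit members called lower were 12 and 4 with quantile normalization, against 13.0% of all genes. They were 42 and 22 with median centring, against 26.8%. In HN4/DDP the medians were -0.08 and 0.03. The order of the subunits was the same with quantile normalization (-0.79 and -0.24), the deposited values (-0.83 and -0.26) and the trend taken off (-0.79 and -0.27). Descent from bacteria separated the members less. The 46 members with a bacterial counterpart had a median of -1.18 and 27 were called lower, and the 30 mitochondria-specific members had a median of -1.07 and 16 were called lower; MRPL57 was placed in neither list. These gaps are descriptions, since genes measured on the same arrays are no replicates.

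Of the large subunit, MRPL1, which belongs to the mobile L1 stalk, had the lowest difference in HN30/DDP. Its level was -0.14 in HN4 and -0.50 in HN4/DDP, then 0.62 in HN30 and -1.60 in HN30/DDP, a difference of -2.21 ± 0.21 (SD of the scanner) in the HN30 line and of -0.36 in the HN4 line. MRPL3, a core protein near the site of peptide bond formation, read 5.02 in HN4 and 5.08 in HN4/DDP, then 5.93 in HN30 and 3.98 in HN30/DDP. Its difference was 0.06 in the HN4 line and -1.95 in the HN30 line. MRPL20, which binds the large ribosomal RNA, read 5.34, 5.13, 5.81 and 3.86 in the same order, a difference of -1.94 in HN30/DDP. MRPL15, another bacterial-type core protein, read 4.66, 3.87, 5.11 and 3.15, and it was lower in both lines (-0.79 in HN4/DDP and -1.96 in HN30/DDP). MRPL14, MRPL47, MRPL39 and MRPL51 followed with differences of -1.86, -1.81, -1.79 and -1.73 in HN30/DDP, against -0.32, -0.52, -0.30 and -0.24 in HN4/DDP.

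The other large subunit genes called lower in HN30/DDP were MRPL12, MRPL50, MRPL17, MRPL11, MRPL52, MRPL27, MRPL18, MRPL16, MRPL48, MRPL13, MRPL36, MRPL54, MRPL37, MRPL46, MRPL40, MRPL9, MRPL22, MRPL21, MRPL30, MRPL43, MRPL19, MRPL44, MRPL55, MRPL32, MRPL38, MRPL4 and MRPL23, from -1.67 to -1.04. Just short of the 2-fold line were MRPL35 (-0.998) and MRPL57 (-0.97). As proteins of the peptide tunnel exit or its anchor at the inner membrane, MRPL22, MRPL23, MRPL24, MRPL39, MRPL44 and MRPL45 were listed. These 6 need not be every such protein. All 6 lay below HN30 with a median of -1.08, and 4 were called lower (13.3% of all genes, and 26.5% and 26.2% in the brightest bins). With quantile normalization 1 of the 6 was called lower (13.0% of all genes). The weakest of these was MRPL45 (-0.50), which holds the ribosome at the membrane.

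The members of the stalk that recruits translation factors did not share a direction. MRPL12, its factor-binding protein, read 4.28 in HN4 and 4.42 in HN4/DDP, then 4.78 in HN30 and 3.12 in HN30/DDP, a difference of -1.67 in the HN30 line. MRPL11, at the stalk base, read 5.21, 4.83, 5.57 and 4.02, a difference of -1.56. MRPL10, which anchors MRPL12, read 4.15 in HN4 and 4.86 in HN4/DDP, then 4.28 in HN30 and 4.87 in HN30/DDP. It lay above its parent in both lines, by 0.71 and 0.59, and it is the 1 member with that pattern.

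Of the small subunit, MRPS17 and MRPS7, both bacterial-type proteins that bind the small ribosomal RNA, had the lowest differences in HN30/DDP. MRPS17 read 5.53 in HN4 and 5.12 in HN4/DDP, then 5.82 in HN30 and 4.11 in HN30/DDP, a difference of -1.71 in the HN30 line. MRPS7 read 2.68, 2.62, 3.18 and 1.51, a difference of -1.67. The remaining small subunit genes called lower were MRPS18C, MRPS11, MRPS28, MRPS23, MRPS12, which lies at the decoding site, and MRPS36, from -1.61 to -1.23. MRPS18C, MRPS18A and MRPS18B are paralogues of the same bacterial protein. MRPS18C read 5.46 in HN4 and 5.46 in HN4/DDP, then 6.11 in HN30 and 4.50 in HN30/DDP (-1.61). MRPS18A read 3.37, 3.43, 3.72 and 3.11 (-0.61). MRPS18B read 5.58, 5.92, 5.88 and 5.67 (-0.22). In HN4/DDP none of the 3 paralogues lay below its parent, with differences of 0.00, 0.06 and 0.34 in the same order.

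Only 3 members were not lower in HN30/DDP. MRPS25, a mitochondria-specific small subunit protein, read 0.61 in HN4 and -0.08 in HN4/DDP, then -0.33 in HN30 and 0.59 in HN30/DDP. Its difference was -0.69 in the HN4 line and 0.92 in the HN30 line. MRPS16 read 6.73, 6.39, 6.23 and 6.65, a difference of 0.41, but a further probe of the gene had the opposite sign. The other was MRPL10 (0.59). The 5 members that stayed nearest to their parents in both lines were MRPL53, MRPS18B, MRPS16, MRPS5 and MRPS21, with no difference beyond 0.48 in size in either line. MRPL53 read 5.09 in HN4 and 4.83 in HN4/DDP, then 5.13 in HN30 and 4.97 in HN30/DDP.

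In HN4/DDP, MRPS6, MRPL44 and MRPL17 were the members past 2-fold. MRPS6, the counterpart of the bacterial protein that pairs with S18, read 6.33 in HN4 and 4.90 in HN4/DDP, then 5.97 in HN30 and 5.45 in HN30/DDP. The difference was -1.43 ± 0.07 (SD of the scanner) in the HN4 line and -0.52 ± 0.07 in the HN30 line. MRPL44, a tunnel-exit protein related to ribonuclease III, read 2.47, 1.16, 2.73 and 1.62, and was past 2-fold lower in both lines (-1.31 and -1.11). MRPL17 read 3.47 in HN4 and 4.52 in HN4/DDP, then 4.31 in HN30 and 2.73 in HN30/DDP. Its difference was 1.05 in the HN4 line and -1.58 in the HN30 line, the widest gap between the lines. MRPS23 had the same shape, at 2.13, 2.95, 2.88 and 1.51, with differences of 0.82 and -1.37. The next lowest in HN4/DDP were MRPS24 (-0.89), MRPS28 (-0.85), MRPL57 (-0.82), MRPL15 (-0.79), MRPS25 (-0.69) and MRPL48 (-0.68). The next highest were MRPL10, MRPL2 (0.59) and MRPL41 (0.48).

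Over the 77 members, the differences in HN4/DDP and HN30/DDP had a Pearson r of 0.06 and a Spearman rho of 0.15, as a description over genes that share their arrays. Over all 22149 genes well above background on all 4 arrays r was 0.28 and rho 0.24. The 48 large subunit members had an r of 0.29 and a rho of 0.30, and the 29 small subunit members -0.23 and -0.13. Lower in both lines were 39 members (34.8% of those genes), and 35 lay above the parent in HN4/DDP and below it in HN30/DDP (19.1%). In 71 members the HN30 line had the lower difference (51.0%), with a median gap of -1.06. Besides MRPL17 and MRPS23, the lowest gaps were those of MRPL3 (-2.01), MRPL1 (-1.85) and MRPL12 (-1.81). The highest were those of MRPS25 (1.60), MRPS6 (0.91), MRPS16 (0.75), MRPS24 (0.27) and MRPL44 (0.20). On each chromosome that holds members their median in HN30/DDP was below 0, from -1.91 to -0.39. The 8 members on chromosome 1 had a median of -1.02 in HN30/DDP, the 8 on chromosome 2 -0.79, the 7 on chromosome 11 -1.40 and the 7 on chromosome 17 -1.37 (hg19).

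Taking both lines as replicates of resistance, a limma fit that blocked on the cell line left 1 residual degree of freedom. It called 0 of 29521 genes at an adjusted p of 0.05, while 2486 (8.42%) had an unadjusted p under 0.05. Of the 77 members 0 were called and 4 had an unadjusted p under 0.05, namely MRPS24, MRPS28, MRPL15 and MRPL44; the smallest adjusted p of a member was 0.527, that of MRPS24. These are genes that were lower in both lines, by -0.75 ± 0.21 (SE) for MRPS24 and -1.21 ± 0.40 for MRPL44 on average. The count of 4 was 14 without the block, where 3250 of the 29521 genes had an unadjusted p under 0.05. With 1 array left out, 1 group holds a lone array, so counts of members by unadjusted p are not given for those fits.

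Because most members lay below HN30 together, their promoters were compared. Reference promoters, 250 bases before to 50 bases after the RefSeq start (GRCh38.p14), were found for 69 of the 77 members, 41 of the large and 28 of the small subunit. None was given for MRPL10, MRPL13, MRPL15, MRPL2, MRPL21, MRPL23, MRPL35 and MRPS28. Both strands were searched for CCGGAAG, the core bound by GABPA and other ETS factors, AAGATGGCG, bound by YY1, CGCATGCG, the core of the NRF1 site, CACGTG, the E-box, TGACGTCA, the full cAMP response element, and TATAAA, the TATA box. The ETS and YY1 words share the letters AAG and could overlap. In the following promoters capitals mark the ETS, YY1, NRF1 and TATA words. MRPL20 and MRPL52 are shown as members below HN30 that hold marked words, and MRPL17 as the member with the widest gap between the lines. The S18 paralogues are shown for their unequal differences, and MRPS25 as the member with the highest difference in HN30/DDP.
MRPL20: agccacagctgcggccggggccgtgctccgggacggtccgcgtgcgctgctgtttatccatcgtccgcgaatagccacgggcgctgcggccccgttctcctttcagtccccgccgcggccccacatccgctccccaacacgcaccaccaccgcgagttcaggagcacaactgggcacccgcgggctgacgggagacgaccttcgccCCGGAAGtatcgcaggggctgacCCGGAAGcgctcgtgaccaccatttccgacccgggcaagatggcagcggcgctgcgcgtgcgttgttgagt
MRPL52: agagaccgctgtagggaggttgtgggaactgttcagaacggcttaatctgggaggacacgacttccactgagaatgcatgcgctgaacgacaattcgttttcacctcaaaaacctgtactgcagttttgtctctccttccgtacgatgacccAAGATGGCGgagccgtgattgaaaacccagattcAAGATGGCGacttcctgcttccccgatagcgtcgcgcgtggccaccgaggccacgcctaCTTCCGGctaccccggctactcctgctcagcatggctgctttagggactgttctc
MRPL17: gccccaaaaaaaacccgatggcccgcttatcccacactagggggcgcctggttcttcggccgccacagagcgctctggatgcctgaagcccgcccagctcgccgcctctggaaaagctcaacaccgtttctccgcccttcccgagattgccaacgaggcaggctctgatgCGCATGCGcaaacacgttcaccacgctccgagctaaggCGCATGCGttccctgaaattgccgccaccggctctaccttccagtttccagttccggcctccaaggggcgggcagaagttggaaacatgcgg
MRPS18A: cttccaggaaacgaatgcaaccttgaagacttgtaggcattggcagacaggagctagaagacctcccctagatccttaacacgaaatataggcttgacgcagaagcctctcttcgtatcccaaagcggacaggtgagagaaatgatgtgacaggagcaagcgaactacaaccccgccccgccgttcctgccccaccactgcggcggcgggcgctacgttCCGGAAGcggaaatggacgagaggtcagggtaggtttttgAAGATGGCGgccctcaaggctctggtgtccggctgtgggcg
MRPS18B: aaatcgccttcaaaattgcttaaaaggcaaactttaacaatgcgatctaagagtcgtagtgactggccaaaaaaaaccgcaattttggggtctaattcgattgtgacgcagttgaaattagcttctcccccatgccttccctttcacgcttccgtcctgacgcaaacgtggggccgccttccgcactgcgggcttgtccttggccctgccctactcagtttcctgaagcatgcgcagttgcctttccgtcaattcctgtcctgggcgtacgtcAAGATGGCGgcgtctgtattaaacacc
MRPS18C: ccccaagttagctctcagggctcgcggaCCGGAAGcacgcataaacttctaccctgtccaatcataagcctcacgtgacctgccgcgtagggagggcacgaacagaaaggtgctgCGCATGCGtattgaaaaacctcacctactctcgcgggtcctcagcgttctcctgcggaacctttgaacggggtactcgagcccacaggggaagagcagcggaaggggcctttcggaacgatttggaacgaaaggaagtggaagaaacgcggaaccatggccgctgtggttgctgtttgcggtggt
MRPS25: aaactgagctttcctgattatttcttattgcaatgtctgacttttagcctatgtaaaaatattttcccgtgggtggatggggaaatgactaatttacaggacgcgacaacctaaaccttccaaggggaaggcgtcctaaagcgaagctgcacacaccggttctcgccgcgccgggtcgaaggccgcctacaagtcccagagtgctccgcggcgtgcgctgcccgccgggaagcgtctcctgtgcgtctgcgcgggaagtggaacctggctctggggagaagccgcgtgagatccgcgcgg
MRPL20 (chr1:1407244-1407543, minus strand) holds 2 ETS words, and MRPL52 (chr14:22829637-22829936, plus strand) 1 ETS and 2 YY1 words. MRPL17 (chr11:6683291-6683590, minus strand) holds 2 NRF1 words. Of the paralogues, MRPS18A (chr6:43687742-43688041, minus strand) holds 1 ETS and 1 YY1 word, MRPS18B (chr6:30617590-30617889, plus strand) 1 YY1 word, and MRPS18C (chr4:83455808-83456107, plus strand) 1 ETS and 1 NRF1 word. In MRPS25 (chr3:15065266-15065565, minus strand) none of the marked words was found in this window. None was found either in MRPL1 (-2.21 in HN30/DDP), MRPL14 (-1.86) and MRPL39 (-1.79), which lay further below HN30 than MRPL52 (-1.54). MRPL53 (-0.16) held 2 ETS words and MRPS16 (0.41) held 1, so the promoters shown do not stand for all members.

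The ETS word was in 28 of 69 member promoters (40.6%), against 10.67% of all 27305 promoters and 14.2% of the 15843 promoters of protein-coding genes. In 24 of the 28 it began within the 100 bases before the start or after it. The YY1 word was in 13 (18.8%), against 1.85% and 2.74%, and in 10 of the 13 it began 7 to 36 bases into the transcript. The NRF1 core was in 3 (4.35%, against 2.19% and 2.88%), the E-box in 7 (10.1%, against 7.43% and 8.88%), the TATA box in 3 (4.35%, against 11.95% and 9.63%) and the full cAMP response element in 0 (1.98% and 2.59%). At least 1 of the ETS, YY1 and NRF1 words was in 38 members (55.1%), against 18.4% of protein-coding genes. In HN30/DDP, members with and without the ETS word had medians of -1.205 and -1.06, and those with and without the YY1 word -1.05 and -1.13. The 3 members with the NRF1 core had -1.58, against -1.05 without it, and the 7 with the E-box -1.25, against -1.05. These gaps have no test. A match of letters is no bound site, and absence from this window says nothing of the factor.

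Of the genes encoding factors tied to these words, NRF1 read -1.91 in HN4 and -2.21 in HN4/DDP, then -1.56 in HN30 and -2.85 in HN30/DDP, a difference of -1.28 in the HN30 line. GABPA, the DNA-binding subunit of an ETS factor, had -0.32, and its partner GABPB1 had -1.43 (levels of 0.68, 0.50, 1.18 and -0.25). YY1 had -0.94 and MYC -0.67. In HN4/DDP these 5 lay between -0.39 and -0.10. The coactivators PPARGC1B and PPRC1 had -0.98 and -0.91 in HN30/DDP, while PPARGC1A was well above background on HN30/DDP alone. The nuclear receptor ESRRA lay above the parent in both lines, by 0.65 in the HN4 line and 0.36 in the HN30 line. The 9 regulators measured had medians of -0.18 in HN4/DDP and -0.91 in HN30/DDP, with 2 called lower (22.2%) and 1 higher (11.1%) in the latter, against 13.3% and 19.7% of all genes. With quantile normalization the median in HN30/DDP was -0.42.

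The same comparison was made for the other parts of mitochondrial translation. The 6 mitoribosomal proteins with other names had a median of -1.13 and 4 were called lower, AURKAIP1 (-1.42), ICT1 (-1.26), CHCHD1 (-1.20) and GADD45GIP1 (-1.06); DAP3 (-0.54) and PTCD3 (-0.75) were not. In HN4/DDP their median was 0.09. Of 14 translation factors, 5 were called lower and 0 higher (median -0.66, and -0.05 in HN4/DDP). That is 35.7%, where 21.4% to 26.5% of all genes were 2-fold lower in the 3 brightest bins. MTIF3 (0.14) and OXA1L (0.22) lay above HN30. The largest differences were those of the release factor MTRF1L (-1.57), the elongation factor GFM1 (-1.37), the COX1 translation activator TACO1 (-1.21) and the recycling factor MRRF (-1.16). Of 23 assembly factors 11 (47.8%) were called lower and 0 higher (median -0.87). The GTPase MTG1 read -0.41 in HN4 and -1.11 in HN4/DDP, then -0.14 in HN30 and -4.06 in HN30/DDP (-3.92), followed by C1QBP (-1.56), the RNA-binding protein FASTKD2 (-1.45) and the GTPase GTPBP10 (-1.42). NOA1 (0.70) and YBEY (0.62) were above HN30. In HN4/DDP the assembly factors had a median of -0.18, and 1 was called lower, the rRNA-binding protein MTERF4 (-1.61). SLIRP, which stabilises mitochondrial mRNAs with LRPPRC, had -1.73 in HN30/DDP, and LRPPRC had -0.54. With quantile normalization the medians in HN30/DDP were -0.66 for the other mitoribosomal proteins, -0.43 for the translation factors and -0.59 for the assembly factors. In these 3 lists 0 of 6, 2 of 14 and 5 of 23 genes were then called lower, against 13.0% of all genes. With the trend taken off the medians were -0.71, -0.45 and -0.50, also with 0, 2 and 5 called lower, against 11.1% of all genes. Under both, 1 assembly factor was called higher.

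The mRNAs that the mitoribosome translates, and the nuclear-encoded partners of their products, were set beside it. Of 11 mRNAs of mitochondrial DNA measured, 6 (54.5%) were called lower in HN30/DDP, against 13.3% of all genes and 26.2% in the brightest bin. The median was -1.02 (-0.32 in HN4/DDP, with 0 called). CYTB read 8.72 in HN4 and 7.77 in HN4/DDP, then 8.78 in HN30 and 6.69 in HN30/DDP (-2.08). Next came ND6 (-2.01), ATP6 (-1.64) and ATP8 (-1.44), while ND1 (0.53) and ND5 (0.09) were above HN30. The median was -0.61 with quantile normalization, where 3 were called lower and 1 higher (13.0% and 13.9% of all genes). Since most of these mRNAs are cut from a shared precursor, they are not independent readings. Of 75 nuclear genes of oxidative phosphorylation, 75 lay below HN30 with a median of -0.85, and 28 (37.3%) were called lower. In the brightest bin of all genes the share was 26.2% and the median -0.46. Of these 75 genes, NDUFB2 (-2.73), ATP5G1 (-2.17), ATP5J2 (-1.64) and NDUFS3 (-1.57) lay furthest below. The median was -0.33 with quantile normalization, -0.38 from the deposited table, -0.39 with the trend taken off and -1.26 with median centring. In HN4/DDP their median was -0.05 and 0 were called lower. The 81 genes of the cytosolic ribosome had a median of -0.11 in HN30/DDP, 63 lay below HN30 and 2 were called lower, RPS26 (-1.72) and RPL27A, which was not well above background on HN30/DDP. The sign of the cytosolic median turned with quantile normalization (0.07), the deposited table (0.05) and the trend taken off (0.19), where the median of the members stayed negative. In HN4/DDP the cytosolic median was -0.01, with RPS27L (1.40) called higher.

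**Figure D4:**
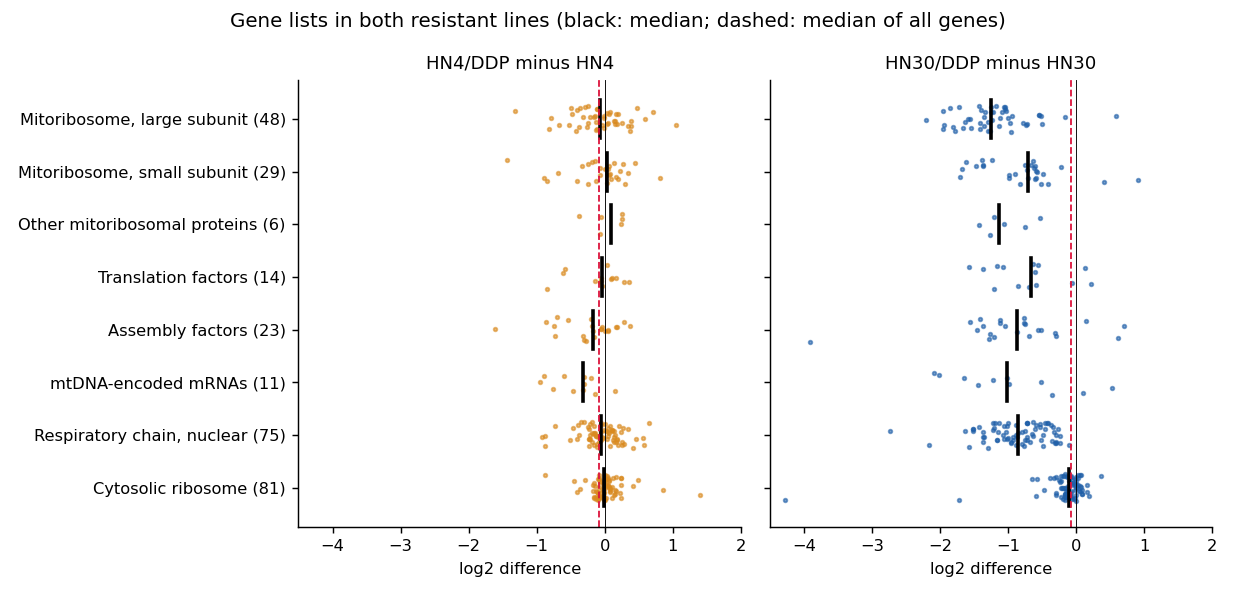
Difference of each gene (log2, horizontal axis) in HN4/DDP (left) and HN30/DDP (right), by gene list, with the number of genes in brackets; black bars are list medians and the dashed line is the median of all genes well above background on all 4 arrays. In HN30/DDP the mitoribosomal, translation, assembly, mitochondrial mRNA and respiratory chain lists have medians from -1.25 to -0.66, and the cytosolic ribosome -0.11.

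For 17 members the array holds further probes, and 17 of these probes were well above background on all 4 arrays. In HN30/DDP 15 of the 17 lay below HN30 and 8 were 2-fold lower, and the median gap to the probe used was 0.21. The closest pairs were those of MRPL46 (-1.29 and -1.28) and MRPS5 (-0.42 and -0.43), whose probes do not overlap. The overlapping probes of MRPL12 gave -1.67 and -1.69. In 3 genes, MRPS16, MRPL43 and MRPL19, a further probe had the opposite sign. Probes are shown by 30 bases from their beginning, in lower case and as printed on the array, to identify the readings that differ.
MRPS16 probe used: gcagtgaactgtgattgttccactacagtc
MRPS16 further probe: gtatcttttccttcctaccttgatgccagt
MRPL43 probe used: ggggtcgtaatatatgtaaactcgcgtccg
MRPL43 further probe: ggctgtgtagaggcctccatctggcgtggg
MRPL19 probe used: catcaccagaatggtctttaatgagcatgg
MRPL19 further probe, RefSeq transcript: gagtgattacactggttgactaatgttaaa
MRPL19 further probe, Ensembl transcript: cgctgagagcttcattcctctgatacataa
The MRPS16 probe used lies at chr10:75008696-75008755 (hg19, minus strand) and gave 0.41 in HN30/DDP. The further probe, at chr10:75009139-75009198, read 3.11 in HN4 and 2.60 in HN4/DDP, then 3.24 in HN30 and 1.80 in HN30/DDP, a difference of -1.44. The MRPS16 probe used shares a run of 16 bases with 2 probes of other gene names. The probes used for 10 other members share such a run with 1 probe each, and 66 of the 77 share none. These 10 are MRPL1, MRPL17, MRPL21, MRPL39, MRPL45, MRPL46, MRPL49, MRPL9, MRPS15 and MRPS33. The effect of shared runs on the readings was not tested. MRPL43 is read at chr10:102746848-102746907 (-1.18) and, in another transcript, at chr10:102738244-102738303 (1.25), where the levels were -2.44, -2.23, -2.78 and -1.53. MRPL19 is read at chr2:75882659-75882718 (-1.14), at chr2:75889260-75889319 (0.37) and at chr2:75897810-75897869 (-2.35). Which exon or untranslated part each probe lies in was not analysed here. So MRPS16 counted among the members above HN30 by its brighter probe only.

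**Figure D5:**
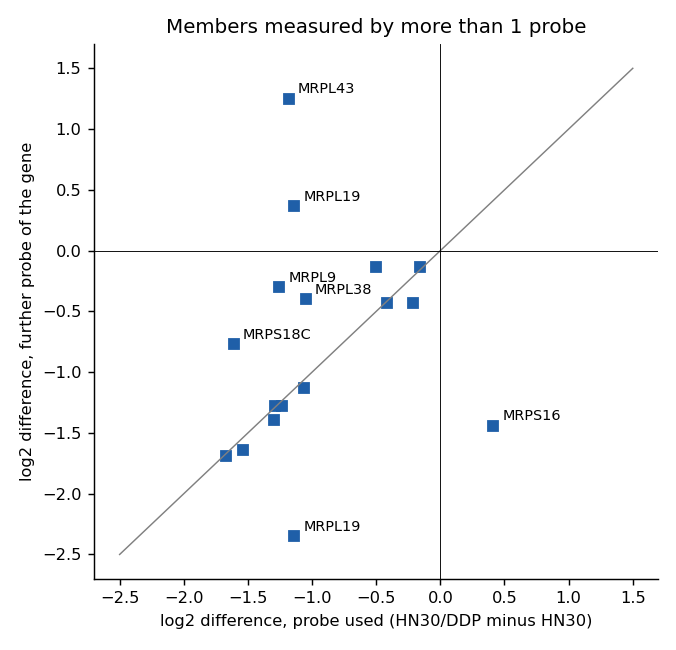
Difference in HN30/DDP (log2) of each further probe of a member that was well above background on all 4 arrays (vertical axis) against that of the probe used (horizontal axis), with the line of equality; genes more than 0.6 apart are named. Of the 17 probes, 15 lie below 0, and MRPS16, MRPL43 and 1 probe of MRPL19 have the opposite sign.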

How the data were processed

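The authors deposited the scanner output of 4 arrays with 1 processed intensity per spot, which Agilent Feature Extraction 10.7.1.1 made by subtracting background and spatial trends, with probe coordinates on hg19. A log2 table was deposited as well. Its columns have equal quantiles, which quantile normalization gives, and the earlier steps behind it are not stated in these sources. Its scale and direction were checked against the scanner values (r = 0.998 for HN4 and 0.949 for HN30 differences over 22149 genes), and each column has a median of 4.65.

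Control and outlier spots (140 to 204 per array) were left out, log2 intensities were reduced by the 75th percentile of the array (435 to 481 in signal), and spots of a probe were averaged. The number of arrays limits the precision. limma 3.58.1 (R 4.3.3) fitted resistant against parental arrays with the line as a block and Benjamini-Hochberg adjustment over 29521 genes; the fit was tested on simulated data. Python 3.11.15 (pandas 2.3.3, numpy 2.4.6) was used otherwise. The members and gene lists were chosen with earlier results of these data known. Genes named by rule were the 8 lowest and 5 highest members of each line, and the 5 largest and 5 smallest gaps between lines. So were every member past 2-fold, the 5 that moved least, the S18 paralogues, the stalk and members whose probes differ in sign. Of each other list, up to the 4 largest differences were named. Further genes, such as MRPL35, the regulators and list genes above HN30, were named outside this rule. Alternatives were normexp (offset 50), quantile normalization, centring on the median, the deposited values, other choices of probe, dim signals raised to the lowest signal well above background, a pseudocount of 16, other thresholds, removal of the trend with brightness (lowess, span 0.3), and each array left out.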

Additional observations from a re-analysis of the deposited data

Results flagged for a closer look

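In 4 members the lines moved in opposite directions by more than 0.5 each. The difference in HN30/DDP minus that in HN4/DDP was -2.64 for MRPL17, -2.19 for MRPS23 and -1.37 for MRPL2, which lay above the parent in the HN4 line and below it in the HN30 line. It was 1.60 for MRPS25, which had the reverse pattern. With 1 array per condition, none of these differences between the lines was tested.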

How the results depend on the processing

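In HN30/DDP the count of 43 members lower by 2-fold was 16 with quantile normalization, 18 with the deposited values and 17 with the brightness trend taken off (13.0%, 13.5% and 11.1% of all genes, against 14.6%), 40 with the mean of all probes and 64 with median centring (26.8% of all genes). The 0 higher members became 1 with quantile normalization, 1 with the deposited values and 2 with the trend taken off. The median of -1.08 became -0.67, -0.72 and -0.73 in these 3, and -1.50 when arrays were centred on their median, which moved the median of all genes by -0.41. At a threshold of 2 on the log2 scale 1 member was lower in HN30/DDP, and 0 were lower and 0 higher in HN4/DDP. At 0.5, HN30/DDP had 70 lower and 2 higher, and HN4/DDP 9 lower and 4 higher. The limma count of 0 genes ranged from 0 to 477 with 1 array left out and no block for the cell line (477 without HN4/DDP, 174 without HN30/DDP), with 0 members among them; the lone array left in a group is then assumed to vary like the others. MRPL43 in HN30/DDP turned to 0.033 with the mean of its probes, and MRPS16 from 0.41 to -0.51. The probes of both genes differ in sign. Of 1386 values of single members under an alternative, 1075 moved by less than the scanner's error. In all, 50 had another sign than the reported value, 26 in the HN4 line and 24 in the HN30 line, and 1 of the 50, that of MRPL43, was of a difference past 2-fold. By replicate number, no paired analysis was possible because each condition holds only replicate 1; the pairing of each resistant line with its parent is the cell line block of the limma fit. The cause of the changes between scalings was not tested. Signal over background limits none of the members, and the single array per condition limits every value.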
